A study of Mus musculus with 12 samples.

Results

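The circadian clock of mouse embryonic fibroblasts was followed through 10 genes, Bhlhe40, Bhlhe41, Noct, Per1, Per2, Cry1, Cry2, Arntl, Nr1d1 and Dbp, out of 12393 genes that the arrays name. They were taken as all probe sets (groups of probes against 1 transcript) to which the platform annotation gives exactly 1 of these symbols, which gave 12 probe sets. A further probe set names Noct together with other genes and was left out. Bhlhe40 and Noct were listed with their rotenone change in these same arrays already known, so their rotenone values are given as a description with no test. Each gene is represented by its brightest probe set, and the second probe sets of Per2 and Dbp are given beside it.

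The cells were primary fibroblasts grown from embryos and used at passage 4, either HtrA2 knockout (KO) or wild type (WT). HtrA2 is a protease of the space between the mitochondrial membranes. The 4 groups of 3 arrays were KO with 1 µM rotenone, KO with vehicle, WT with 1 µM rotenone and WT with vehicle, each for 4 h; rotenone blocks complex I of the respiratory chain. The labels give neither the deleted part of the gene, nor the number of embryos behind a genotype, nor the time of day at harvest, nor any step that would set the clocks of the cells to 1 phase. RNA of whole cultures was measured, so a lower share of cells with a transcript and less of it per cell cannot be told apart. Nothing says that the replicates came from separate cultures, and p-values measure only the spread between these samples.

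The mammalian clock is a transcriptional loop. ARNTL (also called BMAL1) pairs with CLOCK and switches on genes through E-boxes, among them the Per and Cry genes, whose proteins then block that pair. BHLHE40 and BHLHE41 (DEC1 and DEC2) repress at E-boxes too, NR1D1 (REV-ERBα) represses and RORA activates Arntl through RORE elements, and DBP carries the rhythm to output genes through D-boxes. Noct encodes nocturnin, a rhythmic enzyme of the deadenylase family that removes a phosphate from NADP(H). Fibroblasts carry this clock, and serum, hormones and cyclic AMP are known to reset it.

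The elements of this loop were looked up in RefSeq promoter windows of assembly GRCm38.p6, which run from 250 bases before to 50 bases after a start site. Windows were found for 8 of the 10 genes, all but Bhlhe40 and Per2. On both strands, 5 motifs were searched. The E-box CACGTG was in 7.15% of all 32851 windows and in those of Bhlhe41, Per1 and Cry1. The E-prime box CACGTT was in 4.68% of windows and in those of Cry1, Cry2 and Nr1d1; the same bases cannot match both. The RORE core TAGGTCA was in 2.61% of windows and in that of Arntl, the D-box TTATGNAA in 3.38% and in those of Noct and Per1, and the core of the cyclic AMP element, TGACGT, in 7.51% and in that of Per1. A match is a description of the letters and not a bound site, and the Dbp window held none of these letters.

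Noct is shown whole upstream because it and Bhlhe40 had the largest rotenone differences of the members, at chr3:51224197-51224446 on the plus strand, with the D-box letters in capitals, read on the opposite strand, from base -94 relative to the start site.
Noct upstream: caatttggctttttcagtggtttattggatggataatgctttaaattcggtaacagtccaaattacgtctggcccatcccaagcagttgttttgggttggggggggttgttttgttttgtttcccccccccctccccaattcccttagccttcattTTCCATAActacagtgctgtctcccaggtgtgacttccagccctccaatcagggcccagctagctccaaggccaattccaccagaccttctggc

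The RORE core of Arntl is shown because Arntl had the widest spread of all members, at chr7:113207530-113207559 on the plus strand, from base 30 after the start site.
Arntl RORE core: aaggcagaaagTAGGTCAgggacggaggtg

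The stretches of the Cry genes show an E-box and E-prime boxes in capitals, the E-prime boxes being read on the opposite strand. The Cry1 stretches lie at chr10:85185097-85185126 and chr10:85185116-85185145 and that of Cry2 at chr2:92434218-92434247, all 3 on the minus strand.
Cry1 E-box: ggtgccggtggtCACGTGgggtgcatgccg
Cry1 E-prime box: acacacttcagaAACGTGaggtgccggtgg
Cry2 E-prime box: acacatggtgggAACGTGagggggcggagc

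Per1 held 3 of the 5 motifs in the windows of its start sites, and they are shown because Per1 is the member that the resetting signals are best known to act on. They lie on the plus strand at chr11:69098771-69098800, chr11:69098914-69098943 and, before another start site, chr11:69100008-69100037.
Per1 E-box: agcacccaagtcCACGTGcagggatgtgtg
Per1 D-box: agggcctggcaTTATGCAAcccgcctccca
Per1 CRE core: gagctcagcggcTGACGTcggtttccctgg

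Before the clock genes, the labels were checked. For the 3 WT rotenone arrays 1 label field gives the genotype as knockout, against WT in the title, source and description, and they were grouped as WT. The brightest Htra2 probe set stood between 7.66 and 7.82 in KO rotenone, 7.57 and 7.87 in KO vehicle, 9.02 and 9.14 in WT rotenone and 8.83 and 9.32 in WT vehicle cells (log2), so these 3 arrays lay at the WT level. Its dimmer probe set did not separate the genotypes (8.14 to 8.53 in KO and 7.72 to 8.43 in WT arrays over both treatments). Of the markers, 7 of 7 of fibroblasts lay above the median of all probe sets, as did 2 of 5 of leukocytes, 2 of 4 of epithelium and 1 each of 4 endothelial, 3 muscle and 4 neural ones. The arrays numbered 3 stood apart in every group, which is taken up with the replicate numbers. All values are on the authors' log2 scale, a difference of 1 being a doubling, and array medians ran from 7.53 to 7.58.

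Bhlhe40 (probe set 1418025_at), the E-box repressor also called DEC1, was measured in replicates 1, 2 and 3 at 10.47, 10.69 and 9.65 in KO rotenone cells, against 9.84, 9.79 and 8.96 in KO vehicle cells (log2). In WT cells it was 10.67, 10.90 and 10.14 with rotenone, against 9.82, 9.72 and 9.13 with vehicle. Within every replicate number and genotype the rotenone array was the higher one, and replicate 3 was the lowest array of every group. The rotenone and vehicle arrays did not overlap in WT cells and overlapped in KO cells, where rotenone replicate 3 lay below vehicle replicates 1 and 2. Here and below, the share of all probe sets without overlap within 1 genotype was not counted. The difference was 0.74 in KO and 1.01 in WT cells and 0.88 on average (1.84-fold, SE 0.22, and SE 0.07 with the replicate number as a block), and the 6 same-numbered pairs ran from 0.63 to 1.18. Group means were 10.27 ± 0.55 in KO rotenone, 9.53 ± 0.49 in KO vehicle, 10.57 ± 0.39 in WT rotenone and 9.55 ± 0.37 in WT vehicle cells (SD, n = 3 each). Both rotenone groups stood above both vehicle groups, and within a treatment KO and WT differed by less than these SDs.

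Noct (1425837_a_at) stood at 10.76, 10.81 and 9.42 in KO rotenone cells, against 9.82, 9.79 and 9.24 in KO vehicle cells, in the same order of replicates. In WT cells it was 10.56, 10.96 and 9.94 with rotenone, against 9.70, 9.38 and 9.61 with vehicle. It was higher with rotenone in all 6 pairs, without overlap in WT cells, and KO rotenone replicate 3 was again below KO vehicle replicates 1 and 2. The difference was 0.71 in KO and 0.92 in WT cells and 0.82 on average (1.76-fold, SE 0.24, and SE 0.15 with the block). The pairs numbered 3 differed by 0.18 in KO and 0.33 in WT cells, whereas the other 4 pairs ran from 0.85 to 1.57; this difference between pairs was not tested. For Bhlhe40 the pairs numbered 3 averaged 0.85 and the others 0.89. Group means of Noct were 10.33 ± 0.79 in KO rotenone, 9.61 ± 0.33 in KO vehicle, 10.48 ± 0.51 in WT rotenone and 9.57 ± 0.16 in WT vehicle cells (SD, n = 3 each). Within a treatment KO and WT again differed by less than their SDs.

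**Figure D1:**
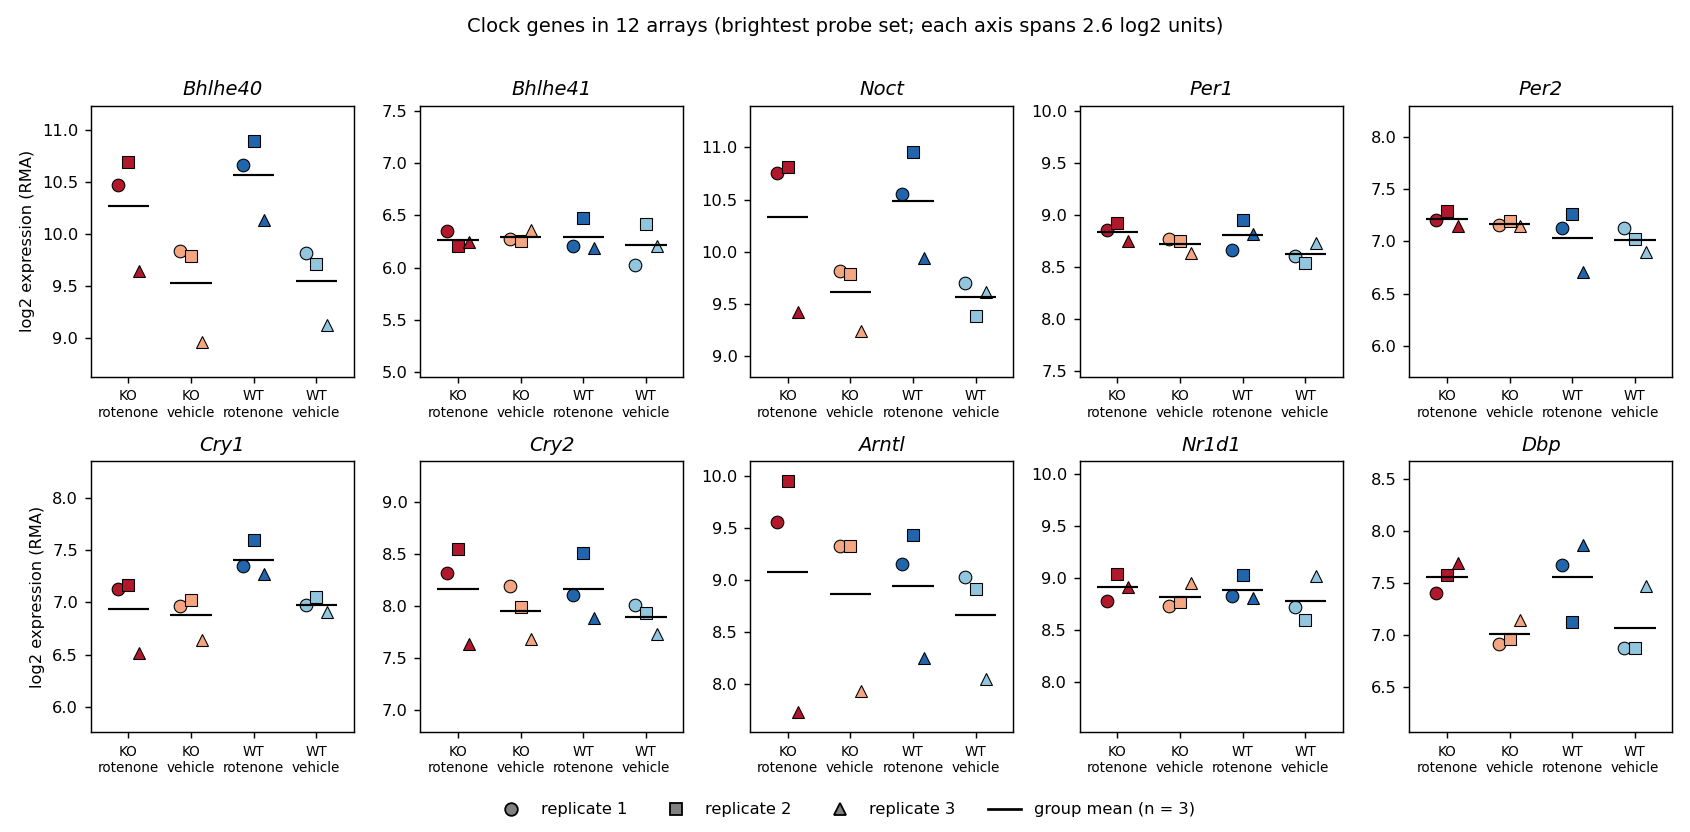
Level of each of the 10 clock genes (brightest probe set, log2, vertical axis) on the 12 arrays, by group (horizontal axis); circles, squares and triangles are replicates 1, 2 and 3 and lines are group means of 3 arrays. Each panel has its own axis but the same span. Bhlhe40, Noct and Arntl show triangles far below the other points of most groups. Rotenone means lie above vehicle means in both genotypes for every gene but Bhlhe41, by the most for Bhlhe40, Noct and Dbp.

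Of the other 8 genes, Dbp alone passed the threshold (adjusted p under 0.05) for the mean rotenone effect, and only with the replicate number as a block. Without the block 0 of 8 passed, against 0.217% of all 22626 probe sets (limma; 2 of 8 had an unadjusted p under 0.05). With the block 1 of 8 passed, against 2.46% of all probe sets, 1.33% higher and 1.13% lower (4 of 8 at an unadjusted p under 0.05). The median difference of the 8 genes was 0.20, and that of all probe sets 0.02. All 8 estimates were above 0 in the fit of all arrays, from 0.02 for Bhlhe41 to 0.52 for Dbp. With the block, those of Per2 and Nr1d1 were -0.03 and -0.02 without replicate 2, and that of Bhlhe41 was -0.03 without replicate 1. The share of all probe sets with an estimate above 0 was not counted.

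Dbp, the D-box activator of clock output, was measured by 2 probe sets. The brighter one (1438211_s_at) read 7.40, 7.58 and 7.69 in KO rotenone cells, against 6.91, 6.96 and 7.14 in KO vehicle cells. In WT cells it read 7.67, 7.13 and 7.86 with rotenone, against 6.87, 6.87 and 7.47 with vehicle. Rotenone and vehicle arrays did not overlap in KO cells and did so in WT cells through rotenone replicate 2. The mean effect was 0.52 (1.43-fold, SE 0.14, adjusted p = 0.259), and 0.52 with SE 0.09 and adjusted p = 0.00718 with the block, higher in 6 of 6 pairs.

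The second Dbp probe set (1418174_at) stood at 6.78, 6.97 and 6.90 in KO rotenone cells, against 6.45, 6.32 and 6.61 in KO vehicle cells. It stood at 6.95, 6.80 and 6.84 in WT rotenone cells, against 6.50, 6.66 and 6.70 in WT vehicle cells. Here the groups did not overlap in either genotype, and 0.782% of all probe sets were higher with rotenone in both genotypes without overlap. The effect was 0.33 (SE 0.07, adjusted p = 0.106, and 0.0195 with the block). In single genotypes Dbp did not pass, with 0.55 in KO (adjusted p with the block = 0.126) and 0.48 in WT cells (0.148) for the brighter probe set. With the block, its call held in 12 of 12 fits that left out 1 array (adjusted p from 0.00150 to 0.0389). It was lost when all arrays of replicate 1 or of replicate 2 were left out.

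Within KO cells 0 of the 8 genes passed with either fit, against 0.00884% of all probe sets, and 0.301% with the block. Within WT cells 0 of 8 passed too, against 0.0133%, and 0.628% with the block. In either fit 1 gene in KO and 2 genes in WT cells had an unadjusted p under 0.05 (limma).

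Cry1 (1433733_a_at), 1 of the blockers of the ARNTL and CLOCK pair, stood at 7.13, 7.17 and 6.51 in KO rotenone cells, against 6.96, 7.02 and 6.64 in KO vehicle cells. In WT cells it stood at 7.35, 7.60 and 7.27 with rotenone, against 6.98, 7.05 and 6.91 with vehicle. The WT groups did not overlap and the KO groups did, and the share of all probe sets without overlap within 1 genotype was not counted. The difference was 0.06 in KO cells (95% interval with the block -0.18 to 0.29) and 0.43 in WT cells (0.19 to 0.66, adjusted p = 0.127), with a mean of 0.24 (adjusted p = 0.667, and 0.132 with the block). Its relative Cry2 (1426383_at) had a mean difference of 0.24 as well (adjusted p = 0.786, and 0.216 with the block), higher in 5 of 6 pairs.

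Arntl (1425099_a_at), the activator of the loop, stood at 9.56, 9.95 and 7.73 in KO rotenone cells, against 9.33, 9.32 and 7.93 in KO vehicle cells. In WT cells it stood at 9.15, 9.43 and 8.25 with rotenone, against 9.03, 8.91 and 8.05 with vehicle. Replicate 3 was more than 1 log2 unit below replicate 1 in KO cells, and the treatments overlapped in both genotypes. The rotenone difference was 0.25 (SE 0.39, adjusted p = 0.926, and SE 0.13, adjusted p = 0.389 with the block), with 0.00 on average in the pairs numbered 3 and 0.37 in the others. With the block and 1 array left out it ran from 0.13 without KO rotenone replicate 2 to 0.40 without KO rotenone replicate 3, where it passed (adjusted p = 0.0241).

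The pair of Per genes differed little. Per1 (1449851_at), a period gene that resetting signals induce, was higher with rotenone in all 6 pairs, as were 6.51% of all probe sets, by 0.06 to 0.41. Its mean difference was 0.15 (95% interval with the block 0.00 to 0.30, adjusted p = 0.318). Per2 (1417603_at) differed by 0.03 (-0.12 to 0.19, adjusted p = 0.876 with the block). Its dimmer probe set (1417602_at), among the 11.7% lowest of all probe sets by mean level, differed by 0.18 (0.02 to 0.35, adjusted p = 0.286 with the block).

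Among the repressors, Nr1d1 (1426464_at) ranged from 8.78 to 9.04 in KO rotenone, 8.73 to 8.95 in KO vehicle, 8.81 to 9.03 in WT rotenone and 8.60 to 9.02 in WT vehicle cells. Its rotenone difference was 0.10 (95% interval with the block -0.07 to 0.27). Bhlhe41 (1421099_at), the close relative of Bhlhe40, ranged from 6.21 to 6.35, 6.26 to 6.36, 6.19 to 6.48 and 6.03 to 6.42 in the same order of groups. Its difference was 0.02 (-0.14 to 0.18), on a probe set near the 26.3rd percentile of all mean levels.

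**Figure D2:**
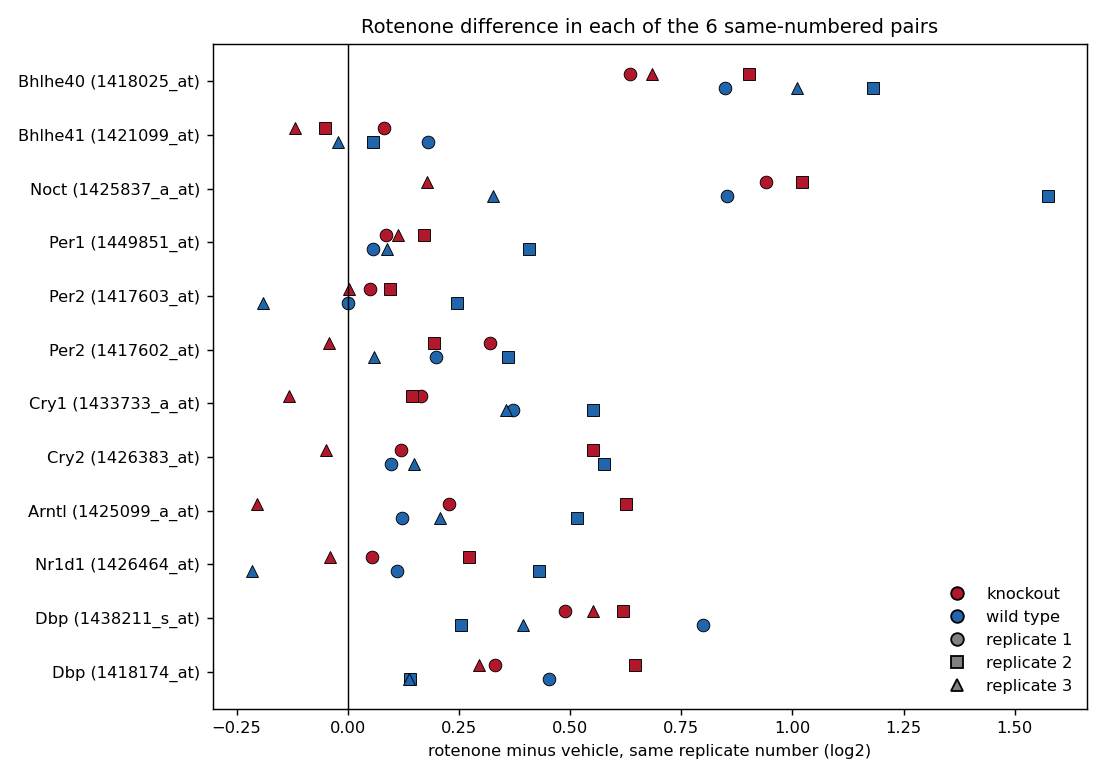
Difference between the rotenone and the vehicle array of the same genotype and replicate number (log2, horizontal axis) for each of the 12 probe sets (vertical axis); red is KO, blue is WT, and circles, squares and triangles are replicates 1, 2 and 3. All 6 points lie above 0 for Bhlhe40, Noct, Per1 and both Dbp probe sets, and the Noct triangles, at 0.18 and 0.33, lie below its other points.

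Knockout and wild-type cells were compared to ask whether loss of HtrA2 alters the clock genes; these contrasts did not choose the members. In rotenone 0 of the 10 genes passed, against 0.00442% of all probe sets, and 0 with the block, against 0.0398%, of which 0.0354% were lower in KO (limma; 1 and 2 genes at an unadjusted p under 0.05). In vehicle 0 of 10 passed as well, against 0.00442%, and 0 with the block, against 0.0177% (0 and 0 genes at an unadjusted p under 0.05). For the interaction, the KO rotenone effect minus the WT one, 0 of 10 genes and 0% of probe sets passed with either fit (unadjusted p under 0.05 for 0 genes, and for 1 with the block).

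The largest genotype estimate among the members was that of Cry1 in rotenone, where KO cells averaged 6.94 ± 0.37 and WT cells 7.41 ± 0.17 (SD, n = 3 each). Every KO rotenone array was below every WT rotenone array, and the share of all probe sets that separate this way was not counted. The difference was -0.47 (SE 0.17, adjusted p = 0.835, and SE 0.11, adjusted p = 0.157 with the block). Its interaction was -0.37 (95% interval with the block -0.70 to -0.03, adjusted p = 1 over all probe sets).

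Bhlhe40 was -0.30 in KO against WT cells in rotenone (95% interval with the block -0.52 to -0.08, adjusted p = 0.290) and -0.03 in vehicle (-0.24 to 0.19). Noct differed by -0.16 in rotenone (-0.61 to 0.30) and 0.05 in vehicle (-0.41 to 0.50). Arntl differed by 0.13 in rotenone and 0.20 in vehicle, and its intervals were the widest of the members without the block (-1.08 to 1.35 in rotenone). Bhlhe40 and Bhlhe41 lie on chromosome 6, as Htra2 does, and neither passed in a genotype comparison.

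**Figure D3:**
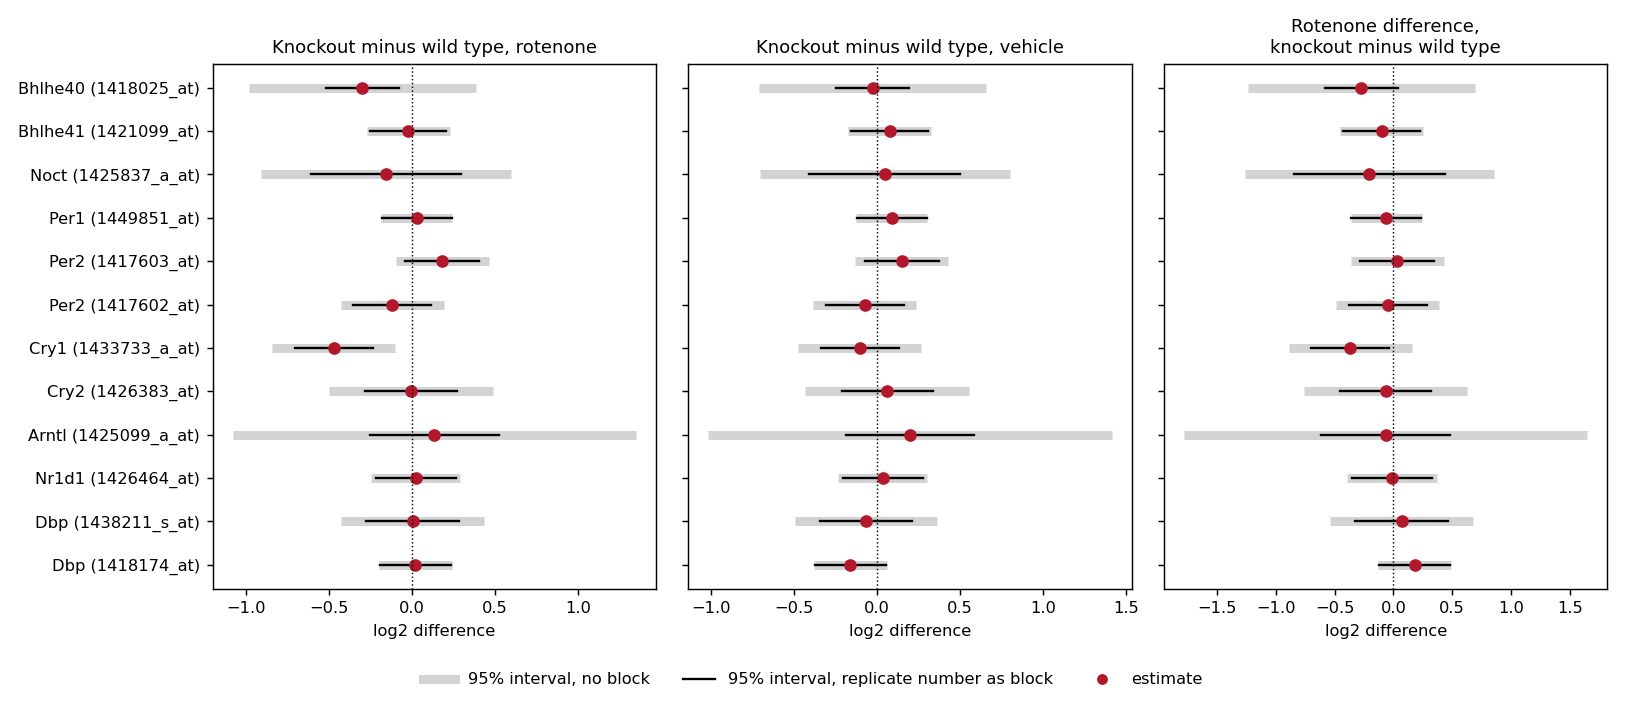
Genotype estimates for the 12 probe sets (vertical axis), as log2 differences with 95% intervals without (grey) and with (black) the replicate block: KO minus WT in rotenone, KO minus WT in vehicle, and the rotenone effect in KO minus that in WT. Cry1 in rotenone, at -0.47, lies farthest from 0, and the grey bars of Arntl, Noct and Bhlhe40 are much wider than the black ones.

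The replicate numbers, from 1 to 3 in the labels, were compared over all 4 groups. With group means accounted for, 6 of the 10 genes differed between the numbers (limma F test, adjusted p under 0.05), against 20.5% of all probe sets. Number 3 was lower in 5 of them, against 8.87% of probe sets, and higher in 1, against 11.6%. The labels do not say what a number stands for. The median over the 10 genes was -0.23 for number 3 minus number 1 and -0.30 for number 3 minus number 2, beside -0.03 and -0.05 for all probe sets.

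Arntl carried the largest such difference of the members. It averaged 7.99 on the 4 arrays numbered 3, 9.27 on those numbered 1 and 9.40 on those numbered 2. Number 3 was lower by 1.28 and 1.41 log2 units (differences -1.28 and -1.41, adjusted p = 1.99e-05), and in every group its Arntl value was the lowest. Bhlhe40 averaged 9.47 on arrays numbered 3, 10.20 on those numbered 1 and 10.27 on those numbered 2 (differences -0.73 and -0.80, adjusted p = 1.94e-05). The rotenone difference of Bhlhe40, 0.88, was thus of the size of its difference between replicate numbers.

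Noct was -0.65 and -0.68 in number 3 against numbers 1 and 2 (adjusted p = 0.0210). In WT vehicle cells its replicate 3 lay between the other arrays, and in the other 3 groups it was the lowest. The Cry genes were lower in number 3 too, Cry2 with -0.42 and -0.51 (adjusted p = 0.00783) and Cry1 with -0.27 and -0.38 (0.0248). Dbp was the only member that passed with number 3 higher, with 0.33 and 0.41 for the brighter probe set (0.0356), whereas the second probe set gave 0.09 and 0.07 (0.678) and the mean of both gave 0.22 against the mean of numbers 1 and 2 (0.0984). Per1 (adjusted p = 0.786), Per2 (0.172), Nr1d1 (0.460) and Bhlhe41 (0.553) did not pass.

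The calls of Arntl, Bhlhe40 and Cry2 held when any 1 of the 12 arrays was left out. That of Noct was lost without KO rotenone replicate 3 (adjusted p = 0.0891) or WT rotenone replicate 3 (0.0549). That of Cry1 was lost without KO rotenone replicate 2 or 3, KO vehicle replicate 3 or WT rotenone replicate 2 (up to 0.117). That of Dbp was lost without KO rotenone replicate 1, KO vehicle replicate 1, WT rotenone replicate 3 or any WT vehicle replicate (up to 0.175).

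Leukocyte and epithelial markers moved with the number. The summed log2 level of 5 leukocyte markers was 34.3 to 34.6 on arrays numbered 3, against 30.9 to 31.5 on those numbered 1 and 30.8 to 31.5 on those numbered 2. Lyz2, the lysozyme of macrophages, made up most of it (2.29 and 2.23 higher in number 3), while Ptprc, the pan-leukocyte marker, was 0.14 and 0.13 higher. The sum of 4 epithelial markers was 26.9 to 29.4 on arrays numbered 3, against 24.9 to 26.0 and 25.1 to 25.7. The keratins Krt18 (1.06 and 1.01 higher in number 3) and Krt8 (0.70 and 0.76) made up most of it. Epcam (0.24 and 0.25) and Cdh1 (0.13 and 0.18) differed less. The sum of 7 fibroblast markers overlapped between the numbers (85.5 to 87.1 on arrays numbered 3, against 85.3 to 86.9 and 86.1 to 88.4). So did the sums of 4 endothelial markers (25.1 to 26.3 on arrays numbered 3, against 25.1 to 26.2 and 25.4 to 25.9) and of 4 neural markers (27.0 to 29.3, against 26.1 to 28.1 and 26.3 to 27.8). The sum of 3 muscle markers was 22.0 to 22.5 on arrays numbered 3, against 21.1 to 22.1 and 21.6 to 21.9. It overlapped between numbers 3 and 1, and every array numbered 3 lay above those numbered 2. For muscle and neural markers the highest sums were on arrays numbered 3. Single markers within overlapping sums still moved with number 3 against numbers 1 and 2. Of the fibroblast markers, Pdgfra differed by 0.96 and 0.56 and Col3a1 by -0.64 and -0.71, and the others ran from -0.34 to 0.02. Of the neural markers, Tubb3 (0.68 and 0.62) and Sox2 (0.84 and 0.82) were higher. Nes (-0.30 and -0.31) and Map2 (-0.10 and -0.03) were lower. The part of any of these cells in the clock gene values was not tested.

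**Figure D4:**
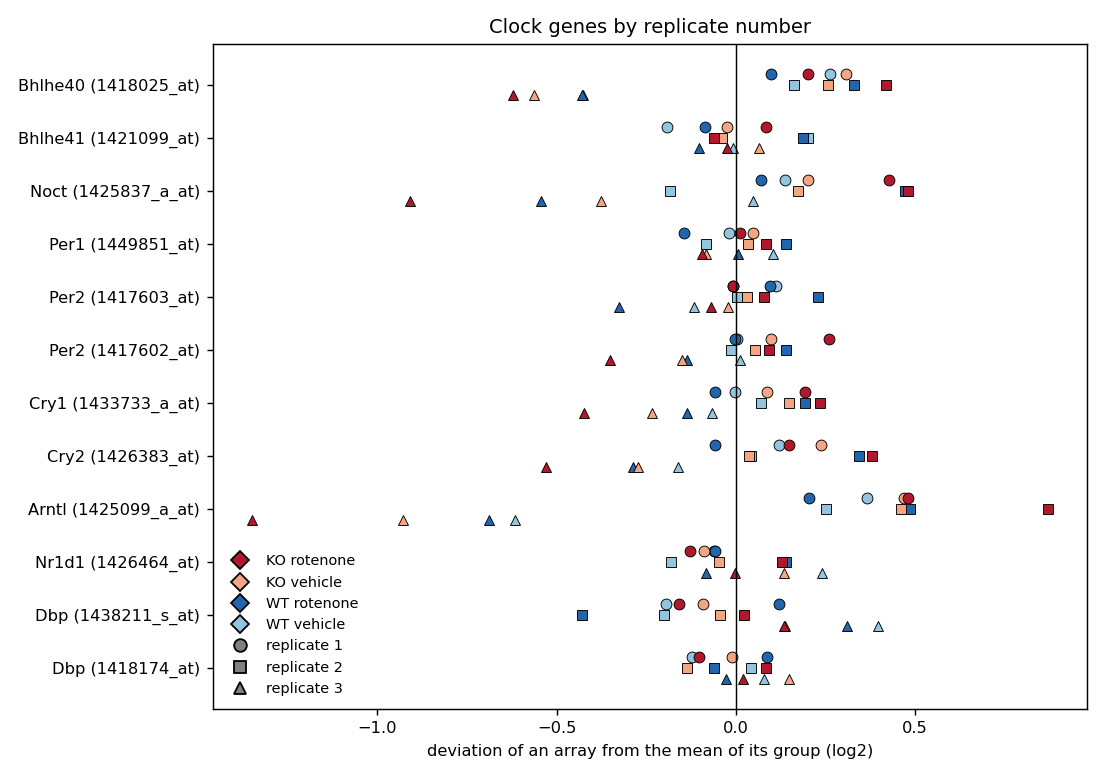
Deviation of each array from the mean of its group (log2, horizontal axis) for the 12 probe sets of the clock genes (vertical axis); colours are the 4 groups and circles, squares and triangles are replicates 1, 2 and 3. Triangles lie left of the other points of their group in all 4 groups for Bhlhe40, Cry1, Cry2, Arntl and the brighter Per2 probe set (1417603_at). They lie right of them in all 4 groups for the brighter Dbp probe set.

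The other genes of the clock were then read from 9 lists with 71 genes, of which 59 were measured. The lists were chosen with earlier results of these arrays known. Among these was the rotenone change of Gem, which is therefore given with no test, so that 58 genes were tested. Without the block 0 of the 58 passed for the mean rotenone effect, against 0.217% of all probe sets (limma; 11 had an unadjusted p under 0.05). With the block 6 rose and 0 fell by their brightest probe set, against 1.33% and 1.13% of all probe sets (22 had an unadjusted p under 0.05).

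Among activators 1 of 5 measured genes rose with the block. It was Rora, the nuclear receptor that drives Arntl through ROREs, by 0.55 (SE 0.06 with the block, adjusted p = 1.95e-04), with 6 of 6 pairs higher. Rora (1424034_at) stood at 8.26, 8.40 and 7.91 in KO rotenone cells, against 7.87, 7.82 and 7.30 in KO vehicle cells. In WT cells it stood at 8.40, 8.52 and 7.98 with rotenone, against 7.88, 7.89 and 7.44 with vehicle. All 3 probe sets of Rora passed with the block (the others 0.46, adjusted p = 0.00242, and 0.28, 0.0445). It passed in each genotype with the block, at 0.53 in KO (0.0149) and 0.57 in WT cells (0.00856). Clock, the partner of ARNTL, had 0.05 (0.855), and its substitute Npas2 had 0.02 (0.932).

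Of the repressors 2 of 4 rose with the block, Nr1d2 (REV-ERBβ, the relative of Nr1d1) by 0.43 (adjusted p = 0.0189) and Nfil3, which represses through D-boxes, by 0.67 (0.0316). The dimmer probe set of Nr1d2 had 0.19 (0.273), with 5 of 6 pairs higher. Nfil3 (1418932_at) stood at 9.76, 9.79 and 8.86 in KO rotenone cells, against 8.73, 8.95 and 8.92 in KO vehicle cells. It was higher in 4 of 6 pairs only, the pairs numbered 3 being those below 0. Without all arrays numbered 3 its effect was 1.02 (adjusted p = 9.86e-09), which is over 1.5 times the value with them. Without number 1 it was 0.54 (0.455) and without number 2 it was 0.44 (0.359), so its call was lost in both. Tef and Hlf, the relatives of Dbp that also act on D-boxes, did not pass (0.20, adjusted p = 0.186, and 0.10, 0.563, with the block). Per3 had 0.09 (0.586).

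Of 5 clock-controlled outputs 1 rose with the block, Nampt, the enzyme that limits NAD salvage, by 0.55 (adjusted p = 4.72e-04). Nampt also passed in each genotype with the block (0.52 in KO, 0.0316, and 0.57 in WT cells, 0.0138), and its dimmer probe set had 0.18 (0.232). Of 8 cofactors 1 rose, Sirt1, the NAD-dependent deacetylase, by 0.52 (0.0211), and Sfpq, a partner of the PER complex, had -0.34 (0.0586) by its brightest probe set and -0.35 (0.0298) by a dimmer one. Of 9 tested early genes that resetting signals induce, none passed; Fos had -0.23 (0.235) and Egr1 0.00 (0.991). The remaining early gene, Gem, a small GTPase, was 0.80 higher with rotenone (SE 0.14, and 0.12 with the block), in 6 of 6 pairs. Of 7 genes reported as targets of the DEC repressors, Hey1, itself a repressor, rose by 0.37 (0.0180). None of 7 kinases and ligases, 2 output factors or 11 deadenylases passed with either fit.

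List medians for the mean rotenone effect were 0.11 for activators, 0.26 for repressors, 0.15 for output factors and outputs alike, 0.12 for kinases and ligases, 0.05 for deadenylases, 0.02 for early genes, 0.00 for DEC targets and -0.04 for cofactors, beside 0.02 for all probe sets. With 1 array left out, Rora and Nampt passed in 12 of 12 fits with the block. Hey1 was lost without KO rotenone 2, KO vehicle 2 or WT vehicle 1 or 2 (adjusted p up to 0.0727). Nr1d2 was lost without KO rotenone 1 or 2, KO vehicle 3 or WT vehicle 1 or 2 (up to 0.0751). Sirt1 was lost without KO rotenone, KO vehicle or WT vehicle replicate 1 or 2 (up to 0.0915), and Nfil3 without any array numbered 1 or 2 (up to 0.128). Without a whole replicate number, Rora passed each time (up to 0.0457), whereas Nampt was lost without number 1 (0.0693). Hey1, Nr1d2, Sirt1 and Nfil3 were each lost without number 1 and without number 2, and passed without number 3. Without numbers 1 and 2 in turn, adjusted p was 0.237 and 0.138 for Hey1, 0.160 and 0.202 for Nr1d2, and 0.237 and 0.293 for Sirt1. None of the 59 genes, Gem included, passed for genotype or interaction with either fit.

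**Figure D5:**
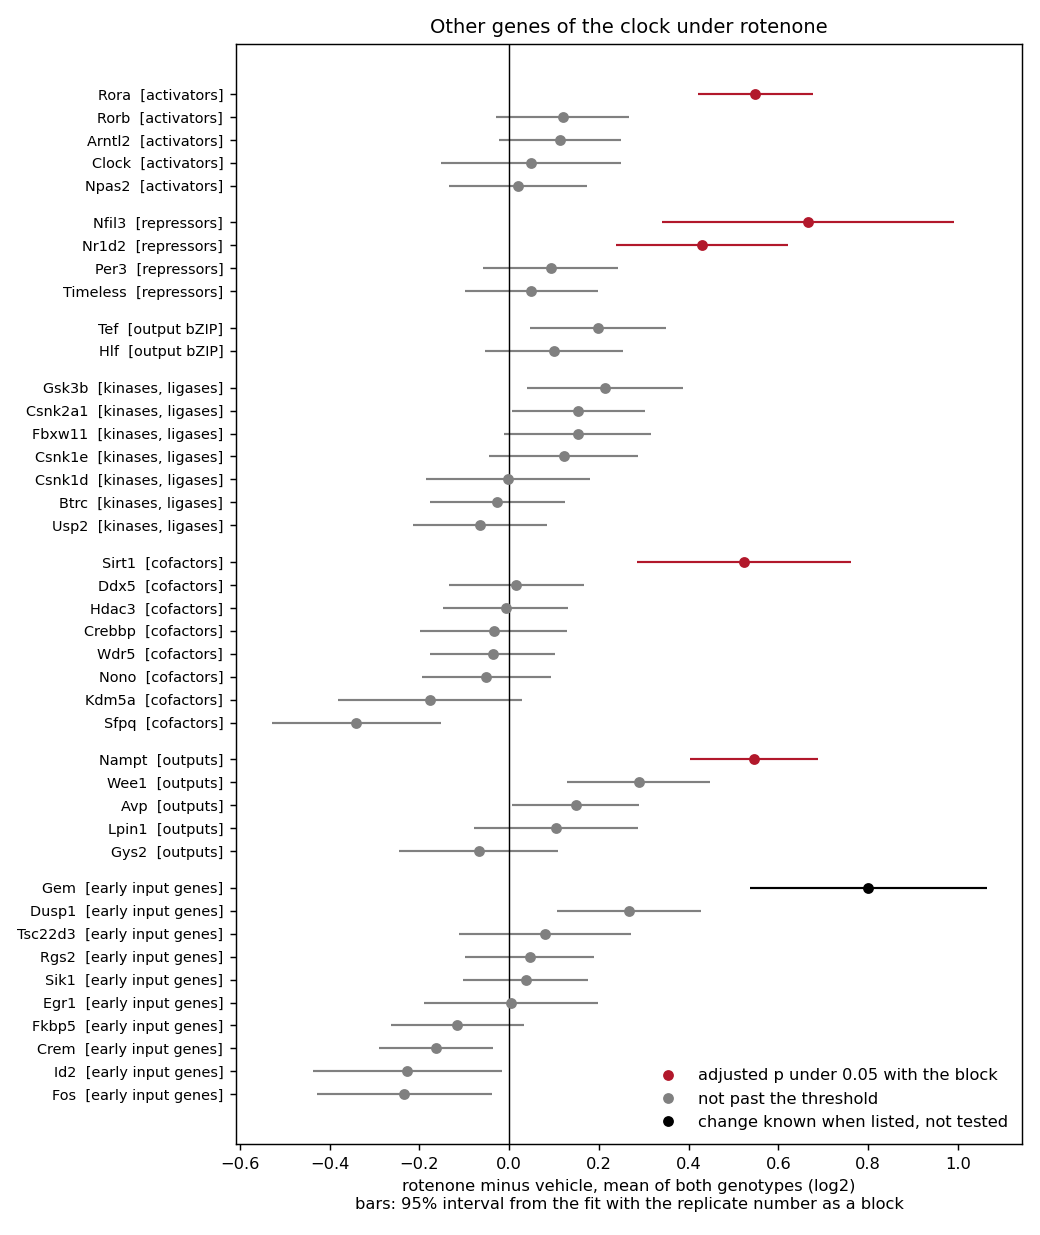
Mean rotenone effect (log2, horizontal axis) of 41 other clock genes by list (vertical axis), with 95% intervals from the fit with the replicate block; red points passed the adjusted threshold, grey ones did not, and the black one, Gem, was not tested. Rora, Nfil3, Nr1d2, Sirt1 and Nampt are red and all lie above 0; the lists of deadenylases and DEC targets are not drawn.

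The replicate number separated other clock genes in both directions. Rora was lower in number 3 (-0.44 and -0.50 against numbers 1 and 2, adjusted p = 3.17e-04), as Arntl was. Of its dimmer probe sets 1 did so too (-0.50 and -0.55, 4.07e-04) and 1 did not pass (-0.16 and -0.09, 0.352). Nr1d2 was higher by its brightest probe set (0.50 and 0.37, 0.00999) and not by the other (-0.07 and -0.02, 0.845). Nampt was likewise higher by its brightest probe set (0.56 and 0.50, 2.84e-04) and not by the other (0.05 and -0.05, 0.704). Timeless (0.82 and 0.69, 1.33e-05) and Wee1, a kinase that holds back mitosis (0.72 and 0.59, 1.10e-04), were higher too. Of the 10 early genes 6 differed by number, against 20.5% of all probe sets. Number 3 was lower in 3, against 8.87%, among them Egr1 (-1.40 and -1.64, 2.57e-07) and Fos (-0.86 and -0.75, 1.07e-04). It was higher in 3, against 11.6%, among them Dusp1 (0.51 and 0.65, 2.93e-04). In the other lists 1 of 5 activators, 2 of 4 repressors, 0 of 2 output factors and 2 of 7 kinases and ligases differed. So did 3 of 8 cofactors, 2 of 5 outputs, 3 of 11 deadenylases and 0 of 7 DEC targets.

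The genes most like Bhlhe40 and Noct over the 12 arrays were picked by Pearson's r among brightest probe sets. Arrays of 1 treatment and of 1 replicate number share levels in both genes, so r is a description only. Rora was the most like Bhlhe40 (r = 0.987), followed by Rassf5 (0.966), Vldlr (0.966), Clba1 (0.963) and Slc35f6 (0.960). The most like Noct were Plk2 (0.966), Pvr (0.964), Maff (0.955), Lamtor3 (0.949) and Ppp1r15a (0.946). Bhlhe40 and Noct correlated with r = 0.922, and with r = 0.681 once the mean of each group and of each replicate number was removed. After that removal the first genes were Tubgcp5 for Bhlhe40 (0.985) and Rgs16 for Noct (0.991), and neither list of 5 held a gene from before.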

How the data were processed

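RNA was hybridised to 12 Affymetrix arrays. The deposited values are log2 values that the authors made with RMA, per the submitters' processing notes; the sources used here do not give its version or settings. RMA brings array distributions together, so a change shared by most transcripts would not show, and it compresses differences near background. Values ran from 3.19 to 14.59. No detection calls or intensities were used, so signal over background is unknown; precision is limited by the number of arrays. Of 22690 probe sets, 64 controls were left out and 22626 tested, 20380 of them with 1 gene symbol, 691 with several and 1555 with none.

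Group means over all 12 arrays were fitted with limma 3.58.1 (lmFit, eBayes, two-sided) in R 4.3.3, with Benjamini-Hochberg adjustment over all probe sets and a threshold of 0.05. Except where stated, every adjusted p comes from this fit, from that fit with the replicate block, or from the limma F test over the numbers. The arrays were treated as paired by number, which rests on their values, since the labels do not say what a number marks. Deviations from group means of all 18 same-numbered pairs correlated (r from 0.289 to 0.829); within numbers 1 and 2, r was 0.289 to 0.554, against -0.05 to 0.48 between them. Members, lists and the wider genes were chosen with earlier results of these data known. The text names all members, genes of the lists that passed with or without the block, others of the lists for comparison, and the 5 genes most like Bhlhe40 and Noct. The share of all probe sets whose groups do not overlap was counted for rotenone in both genotypes together, and not within 1 genotype. Motifs were matched as exact letters.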

Additional observations from a re-analysis of the deposited data

How the results depend on the processing

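The count of the 8 tested clock genes past the threshold for the mean rotenone effect was 0 without the block and moved under the block only. It was 1 with the replicate block, 1 with the block on the mean of a gene's probe sets, 4 with the block and without replicate 3 of every group, and 0 with the block and without replicate 1 or 2. With the block and 1 array left out it was 1 in 11 fits and 3 without KO rotenone replicate 3, the added genes being Arntl (0.40, adjusted p = 0.0241) and Cry1 (0.31, 0.0250). The 4 genes without replicate 3 were Dbp (0.54, adjusted p = 5.21e-04), Arntl (0.37, 0.0130), Cry1 (0.31, 0.0335) and Cry2 (0.34, 0.0351); fewer arrays were used there, and the cause was not tested. The KO count of 0 became 1 with the block and without replicate 3, and 1 without WT rotenone replicate 2. The WT count of 0 became 2 with the block and without replicate 3, and 1 without KO rotenone replicate 3. Array weights, a trend in eBayes, repeated quantile normalization, leaving out probe sets below the 25th percentile of mean level (which drops the dimmer Per2 probe set) and leaving out 1 array without the block kept these counts at 0. Genotype and interaction counts were 0 under every alternative run. The count of 6 for the replicate number stayed within 1.5 times. Estimates past no threshold changed sign in 62 of 340 cases for the interaction and 13 of 340 for the mean rotenone effect. The alternatives that leave out single arrays with the block or in the F test, and the block on gene means, were chosen after seeing the data.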
